A study of Mus musculus with 29 samples.

Results

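The genes examined were 10 mouse GTPase genes that interferons induce: Mx1 and Mx2, the guanylate-binding protein genes Gbp2, Gbp3, Gbp5 and Gbp7, and the immunity-related GTPase (IRG) genes Irgm1, Irgm2, Igtp and Iigp1. They were chosen by symbol, with earlier results of these data known. Each symbol matched 1 of the 48709 Ensembl identifiers in the 3 tables of read counts. All 10 passed the filter on low counts in every experiment. RNA-seq had been made from 29 libraries in 3 experiments. The PFC (prefrontal cortex) libraries came from male C57BL/6J mice aged 3 months injected on both sides with lipid nanoparticles, and one side of the PFC was collected days later. These nanoparticles carried an inhibitor of the microRNA miR-99b-5p, called anti-miR-99b, in 3 libraries and a scrambled control, called sc-control, in 3. Both oligonucleotides were locked nucleic acids (LNA). The second experiment used primary microglia of newborn CD1 mice, shaken off mixed glia and kept in medium with L929-conditioned supernatant, of which 4 libraries had been given the inhibitor and 4 the control. In the third, microglia treated in the same way were placed on cortical neurons of CD1 embryos, and RNA was taken from the whole co-culture (7 libraries with the inhibitor, 8 with the control). The labels do not say which libraries share an animal or a preparation of cells, so the p-values measure the spread between these libraries. Every group therefore received an LNA, and no library of cells without one was analysed here. The comparison in each experiment asks which transcripts differ when miR-99b-5p is blocked.

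Interferons bind receptors that activate JAK kinases and STAT transcription factors. These factors then bind interferon-stimulated response elements (ISRE) and gamma-activated sites (GAS) in the DNA. The GTPases studied here are among the most strongly induced targets of these factors, and in the brain microglia are one of the cell types that make them. Mx proteins are relatives of dynamin that block viral replication, Mx1 in the nucleus and Mx2 in the cytoplasm. Guanylate-binding proteins assemble on the membranes of pathogens and of the vacuoles around them, where they help to open these to autophagy proteins and inflammasomes. Among the IRG proteins, Irgm1, Irgm2 and Igtp (also called Irgm3) are regulators that sit on the cell's own membranes and hold back the effectors, and Iigp1 (Irga6) is an effector that is loaded onto the vacuole of parasites such as Toxoplasma gondii.

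Sequences upstream of RefSeq start sites are shown because the 10 genes were chosen as interferon targets and the elements above can be read in them. RefSeq windows of 250 bases before to 50 bases after the start site (GRCm38.p6) were at hand for 7 of the 10 genes, Gbp2, Gbp3, Gbp5, Gbp7, Irgm1, Irgm2 and Igtp. The ISRE core GAAANNGAAA, searched on both strands, occurred in a window of all 7, whereas 4.0% of 27025 mouse genes hold it in such a window. The GAS core TTCNNNGAA, which reads the same on both strands, was found in the windows of 4 genes (Gbp5, Gbp7, Irgm2 and Igtp), against 9.6% of all genes. Below, each stretch is written 5′ to 3′ on the strand of its gene, and capitals mark the bases of these cores. A match describes letters and not a bound site.
Gbp2: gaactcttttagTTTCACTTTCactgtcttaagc
Gbp3: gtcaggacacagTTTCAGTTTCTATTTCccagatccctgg
Gbp5: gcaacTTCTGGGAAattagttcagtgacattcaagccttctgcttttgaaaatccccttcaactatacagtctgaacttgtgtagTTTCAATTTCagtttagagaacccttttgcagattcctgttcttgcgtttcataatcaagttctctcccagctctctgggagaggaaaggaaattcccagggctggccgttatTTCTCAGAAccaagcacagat
Gbp7: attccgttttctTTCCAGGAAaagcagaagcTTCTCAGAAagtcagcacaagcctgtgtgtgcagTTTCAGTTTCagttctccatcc
Irgm1: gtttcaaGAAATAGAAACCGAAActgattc
Irgm2: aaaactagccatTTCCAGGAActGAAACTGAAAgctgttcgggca
Igtp: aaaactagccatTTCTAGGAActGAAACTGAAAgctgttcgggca

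The stretches lie at chr3:142620592-142620625 (Gbp2), chr3:142559987-142560026 (Gbp3), chr3:142496684-142496902 (Gbp5), chr3:142530218-142530304 (Gbp7), chr11:48871428-48871457 on the minus strand (Irgm1), chr11:58214890-58214934 (Irgm2) and chr11:58199499-58199543 (Igtp), and all but that of Irgm1 are on the plus strand. In Gbp2 the core begins 59 bases before the start site, on the opposite strand. The GENCODE annotation used below places some starts elsewhere, so the stretches of Gbp5, Irgm1 and Irgm2 lie inside its gene spans. By its exons, 30 of 30 bases of the Irgm1 stretch and 24 of 34 of the Gbp2 stretch are exonic. The Gbp3 and Irgm1 stretches each hold 2 overlapping ISRE cores. The Irgm2 and Igtp stretches were alike at 44 of 45 positions and carry a GAS core just ahead of the ISRE core. The target of the inhibitor, mature miR-99b-5p (RefSeq, GRCm38.p6, chr17:17830194-17830215, plus strand), is shown with its seed, bases 2 to 8, in capitals, since the seed is the part that pairs with messenger RNA.
miR-99b-5p: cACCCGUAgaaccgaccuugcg
The 7-base complement of the seed, TACGGGT, was not found in the annotated 3′ UTR of any of the 10 genes, and 1.33% of 21849 genes with such a UTR hold it.

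In the GENCODE M21 annotation (GRCm38), the 4 guanylate-binding protein genes lie within 144.0 kb of chromosome 3, in the order Gbp5 (chr3:142493978-142522344), Gbp7 (chr3:142530342-142550149), Gbp3 (chr3:142560026-142573209) and Gbp2 (chr3:142620602-142638008). Mx1 (chr16:97447035-97462907) and Mx2 (chr16:97535308-97560900) share a region of 113.9 kb on chromosome 16. The annotation lists Mx1 as protein coding and Mx2 as a polymorphic pseudogene, and RefSeq lists both as transcribed pseudogenes in C57BL/6J, the strain of the PFC samples and of the reference but not of the cultures. Irgm1 (chr11:48861968-48871683) is on chromosome 11, as are Igtp (chr11:58199556-58207591) and Irgm2 (chr11:58199618-58222782), which overlap on the same strand and share 162 exonic bases. Iigp1 lies apart from the other 9 genes. Gbp7 shares 637 exonic bases with Gm43802, also on the same strand. Reads in shared bases cannot be assigned to one gene with certainty, so the counts of Igtp, Irgm2 and Gbp7 are uncertain to that extent. Of all stretches of 50 bases in their transcripts, 12.7% in Gbp7, 11.8% in Igtp, 7.8% in Irgm2 and 4.4% in Mx1 and in Mx2 also occur in another gene, and 3.8% or less in the other 5 genes.

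Total counts ranged from 24482309 to 36475236 in the PFC, from 21324156 to 35013400 in the microglia and from 23269839 to 37901110 in the co-cultures. The 10 genes had 45 to 1037 counts per library in the PFC, 39 to 2579 in the microglia and 15 to 543 in the co-cultures, where Mx1 was the lowest. Levels are given as CPM, counts relative to the library total, scaled between the libraries of an experiment by edgeR's TMM factors, and as mean ± SD over libraries. In the primary microglia, 10 microglia markers summed to 10900 to 11500 CPM and 8 neuron markers to 109 to 123 CPM. Other cell types left low sums there, namely 54.4 to 64.8 CPM for 6 endothelial markers (Cldn5 at 0 counts), 3.25 to 4.73 CPM for 6 monocyte or neutrophil markers (S100a9 and Chil3 at 0) and 0.774 to 1.73 CPM for 6 T or NK cell markers (Cd3e, Cd3g, Cd8a and Nkg7 at 0). In the co-cultures the microglia markers summed to 121 to 158 CPM beside 5930 to 6230 CPM for the neuron markers. In bulk tissue and in mixed cultures, fewer cells of a type and less RNA per cell cannot be told apart.

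Under sc-control, the regulatory IRG genes led in the microglia, and Gbp3, Gbp7 and Gbp2 had the highest means in the co-cultures. These levels are divided by exonic length (RPKM, CPM per kilobase), so that genes can be compared. In the microglia Irgm1 (10.4 ± 1.14 RPKM, n = 4) and Igtp (9.81 ± 1.25 RPKM) were the highest and overlapped in range, followed by Irgm2 (6.04 ± 0.422 RPKM). Gbp2 (3.52 ± 0.161 RPKM) and Mx1 (3.30 ± 0.548 RPKM) came next with overlapping ranges, and then Mx2, Gbp3 and Gbp7 without overlap. Iigp1 (0.309 ± 0.0382 RPKM) and Gbp5 (0.293 ± 0.0344 RPKM) were the lowest and overlapped.

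In the PFC, Igtp (4.71 ± 0.616 RPKM, n = 3), Gbp3 (3.64 ± 1.26 RPKM), Irgm1 (3.51 ± 0.719 RPKM) and Gbp2 (3.40 ± 0.660 RPKM) were highest, and each overlapped the next. Irgm2 (2.1 ± 0.356 RPKM) and Gbp7 (1.23 ± 0.236 RPKM) stood apart below them. Gbp5, Mx2, Iigp1 and Mx1 made up the lowest set, from 0.718 ± 0.119 RPKM in Gbp5 to 0.522 ± 0.223 RPKM in Mx1, with each range overlapping the next. In the co-cultures Gbp3 was highest (3.89 ± 0.514 RPKM, n = 8). It was followed by Gbp7 (2.66 ± 0.214 RPKM), Gbp2, Irgm1 and Igtp (1.98 ± 0.310 RPKM), which overlapped in that order. Gbp5 lay below these 5 genes, at 0.7 ± 0.134 RPKM, and Mx1 was the lowest there, at 0.223 ± 0.0542 RPKM.

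Set side by side, the sc-control level of Mx1 in the microglia was 14.8 times that in the co-cultures and 6.35 times that in the PFC, and Irgm2 was 9.65 and 2.88 times as high. Gbp3, Gbp5, Iigp1 and Gbp7 ran the other way, with microglia levels of 0.323, 0.410, 0.537 and 0.783 times those of the PFC and 0.302, 0.420, 0.679 and 0.362 times those of the co-cultures. These ratios are descriptions without a test, since strain, age, cell composition and scaling all differed between the experiments.

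**Figure D1:**
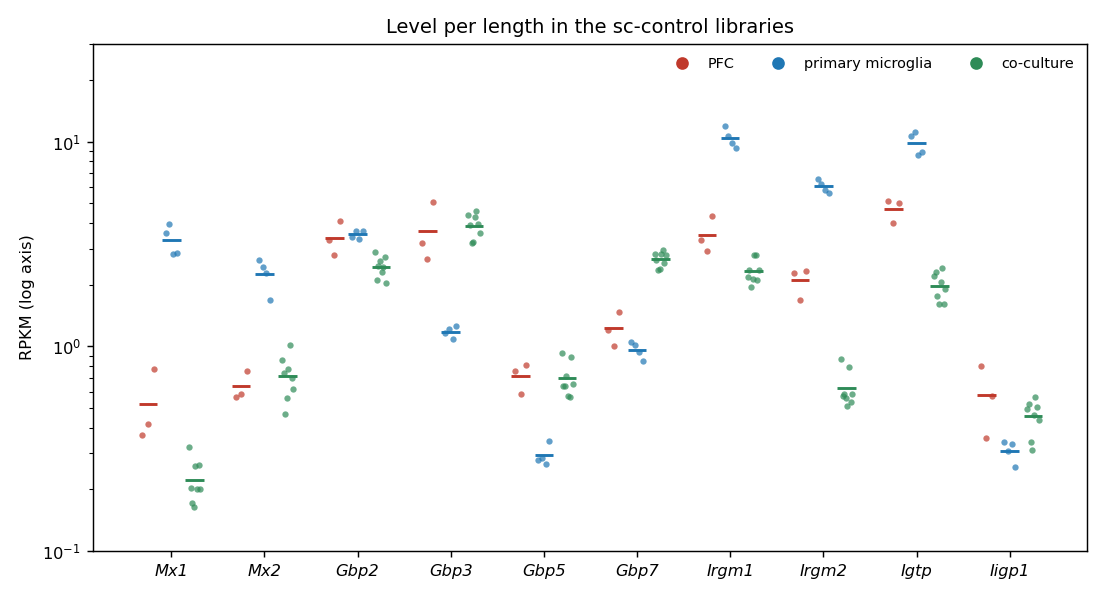
Level per exonic length (RPKM, log axis) of the 10 genes in the sc-control libraries of the PFC (n = 3), the primary microglia (n = 4) and the co-cultures (n = 8). Points are libraries and bars are means; the means of Irgm1, Igtp, Irgm2, Mx1, Mx2 and, by a small margin, Gbp2 were highest in the microglia, and those of Gbp3, Gbp5, Gbp7 and Iigp1 were lowest there.

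In the PFC, the mean of all 10 genes was higher after anti-miR-99b than after sc-control, where 50.6% of the 17364 genes tested had a log2FC above 0. The Mx genes differed most, at 2.72 (Mx1) and 2.74 (Mx2) times the control level, and the other 8 lay between 1.27 and 1.82 times. A gene was called here where its adjusted p-value was below 0.1 and its log2FC exceeded 0.2 in size. Mx2 alone among the 10 was called higher, which compares with 0.0864% of all genes tested. In all, 8 members had an unadjusted p-value under 0.05 with a higher level, against 5.17% of all genes. In 5 members (Mx1, Mx2, Gbp2, Gbp3 and Gbp5) every anti-miR-99b library lay above every sc-control library, against 7.52% of all genes.

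Mx2 was at 4.98, 6.65 and 7.23 CPM in anti-miR-99b replicates 1, 2 and 3 and at 2.04, 2.11 and 2.74 CPM in sc-control replicates 2, 3 and 4. All treated libraries were above all controls, with a wide gap between the lowest treated and the highest control library. This gave 6.29 ± 1.17 against 2.30 ± 0.384 CPM (n = 3 each) and a log2FC of 1.45 ± 0.18 (SE; edgeR quasi-likelihood test, adjusted p = 0.032, 95% interval 2.07 to 3.62-fold). Mx1 had 4.08, 5.25 and 6.77 CPM in the same treated libraries and 1.40, 1.59 and 2.94 CPM in the controls. Again no library overlapped, with sc-control replicate 4 well above the other controls. The log2FC of 1.44 ± 0.28 of Mx1 was close to that of Mx2 but less precise, and it did not pass the threshold (edgeR adjusted p = 0.197).

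Of the guanylate-binding protein genes, Gbp3 had the largest difference, with 17.5, 20.0 and 24 CPM in the treated libraries and 10.4, 8.70 and 16.5 CPM in the controls. The groups did not overlap, but the highest control, replicate 4, was close to the lowest treated library. Its log2FC of 0.78 ± 0.21 had an adjusted p of 0.375 (edgeR). Gbp2, which takes part in the attack on parasite vacuoles, was at 11.8, 12.8 and 14.4 CPM against 8.35, 7.01 and 10.3 CPM. Here too the groups were separate, and the log2FC of 0.60 ± 0.14 came with an adjusted p of 0.324 (edgeR). Gbp5, known for its part in NLRP3 inflammasome assembly, was at 5.88, 6.00 and 7.86 CPM against 5.03, 3.88 and 5.39 CPM. It was separated narrowly, at 1.38 times the control level (adjusted p = 0.616, edgeR). Gbp7, which has been tied to the assembly of the phagocyte oxidase, was at 6.37, 9.08 and 13.5 CPM against 6.73, 5.64 and 8.27 CPM. Treated replicate 1 of Gbp7 lay within the controls, and the 95% interval of the ratio, 0.971 to 2.04, included no change.

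The regulatory IRG genes had log2FC of 0.35 to 0.46, with libraries that overlapped between the groups. Irgm1 was at 23.7, 26.1 and 34.1 CPM in treated replicates 1, 2 and 3 and at 19.1, 17.0 and 25 CPM in controls 2, 3 and 4. Only control replicate 4 reached into the treated range, and the log2FC of 0.46 ± 0.16 had an adjusted p of 0.618 (edgeR). Igtp was at 9.23, 12.8 and 16.0 CPM against 10.4, 8.10 and 10.1 CPM. Irgm2 was at 6.74, 10.4 and 12.4 CPM against 8.46, 6.24 and 8.56 CPM. In both, treated replicate 1 fell inside the control range. The ratios were 1.33 for Igtp (95% interval 1.01 to 1.76) and 1.27 for Irgm2 (0.926 to 1.75). The effector Iigp1 was at 4.17, 4.82 and 9.37 CPM against 4.66, 2.08 and 3.32 CPM. Its mean rested largely on treated replicate 3, since the other 2 treated libraries were near the highest control, and the log2FC of 0.86 ± 0.33 carried the widest error of the 10.

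**Figure D2:**
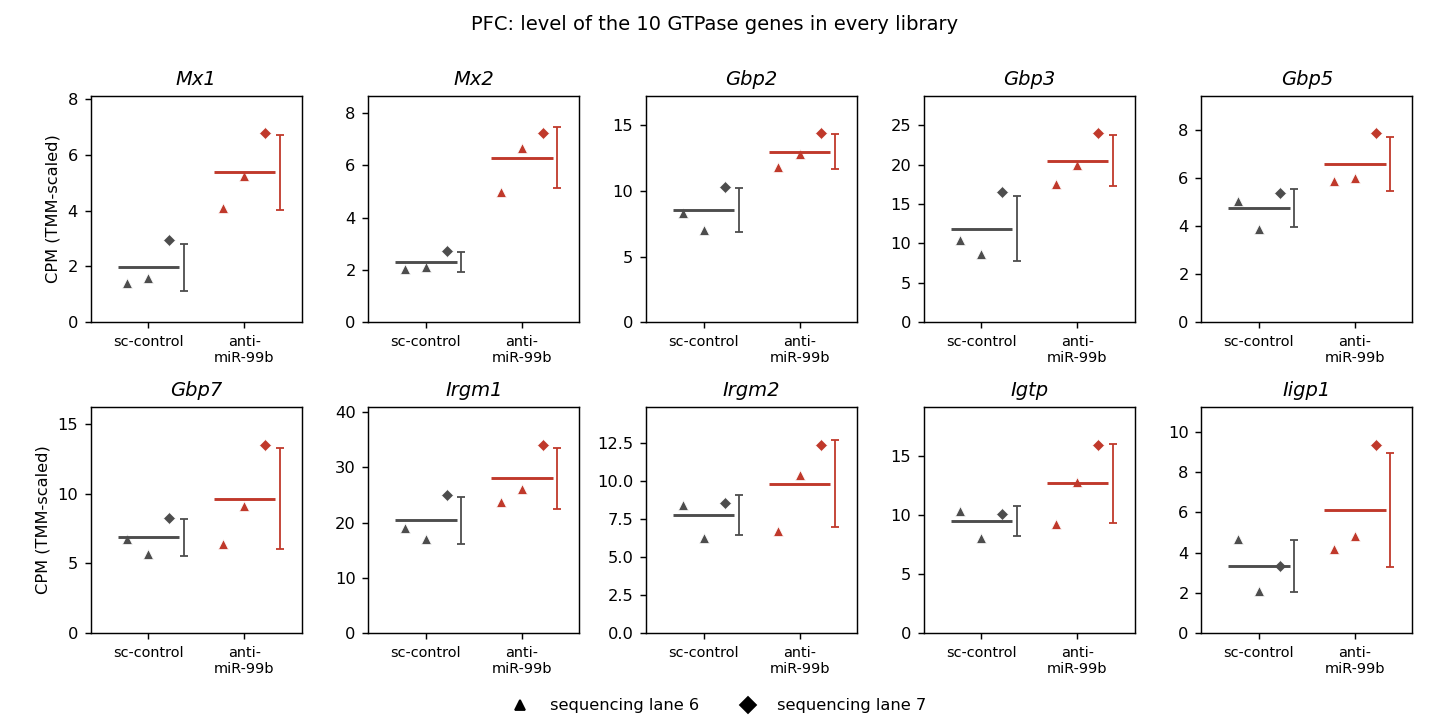
CPM (TMM-scaled) of each gene in the 3 sc-control and 3 anti-miR-99b libraries of the PFC. Points are libraries with the sequencing lane as shape, horizontal bars are means and error bars SD; Mx1, Mx2, Gbp2, Gbp3 and Gbp5 do not overlap, and the highest treated library of every gene is the one from lane 7.

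The libraries were not evenly placed within their groups. Treated replicate 3 was highest and treated replicate 1 lowest for all 10 members, and control replicate 4 was the highest control for 8 of them. Treated replicate 3 and control replicate 4 were the libraries of sequencing lane 7, the others those of lane 6, as the names of the sequence files give it. Within lane 6 (2 against 2) the treated mean was higher for 10 of 10 members, with log2 ratios of 0.22 to 1.65. Within lane 7 (1 against 1) the treated library was higher for 10 of 10, with log2 ratios of 0.44 to 1.5. The share of all genes was not computed within a lane, and members that vary together are not separate comparisons. Microglia markers summed to 584, 637 and 587 CPM in treated replicates 1, 2 and 3 and to 467, 459 and 609 CPM in controls 2, 3 and 4, with 0 of 10 markers called and 9 of 10 with a log2FC above 0 (median 0.26). The 6 markers of monocytes or neutrophils summed to 5.15 to 6.65 against 2.43 to 5.30 CPM, and 5 of 5 tested had a log2FC above 0 (median 0.70), with 0 called. The part of these differences in the members' values was not tested.

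The exact permutation test of the CPM means cannot go below p = 0.1 with 3 against 3 libraries, and 5 members reached that value (two-sided). How many members were called depended on the analysis. With DESeq2's Wald test 4 were called (0.49% of all genes), with the lane as a block 5 (0.42%), without a filter on low counts 7 (0.949%) and with a factor of unwanted variation (RUVs) 10 (1.2%). Mx2 was called in each of these. Its adjusted p rose past 0.1 without treated replicate 2 (0.294), control replicate 2 (0.284) or control replicate 3 (0.145), while its log2FC stayed between 1.34 and 1.6 whichever library was left out.

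In the primary microglia, too, the mean of all 10 members was higher after anti-miR-99b (51.6% of the 14953 genes tested had a log2FC above 0), by factors of 1.16 to 1.5. Mx1, Irgm1, Irgm2 and Igtp were called higher (adjusted p-value below 0.1, log2FC of more than 0.1), that is 4 of 10 members against 0.435% of all genes. In all, 9 members had a higher level at an unadjusted p-value under 0.05 (3.4% of all genes). The groups were separate for Gbp2 and Iigp1, against 1.65% of all genes.

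Mx1 rose from 12.5 ± 2.07 to 18.4 ± 3.60 CPM (n = 4 each). The treated replicates 1, 3, 4 and 5 had 20.8, 13.0, 20.2 and 19.4 CPM and the control replicates 2, 3, 4 and 6 had 13.5, 14.9, 10.7 and 10.9 CPM. Treated replicate 3 stood inside the control range and the other 3 well above it. The log2FC of 0.57 ± 0.12 had an adjusted p of 0.0272 (edgeR quasi-likelihood test). Mx2 was at 11.9, 8.65, 10.5 and 13.5 CPM in the treated and 9.58, 8.79, 8.28 and 6.06 CPM in the control libraries. Treated replicate 3 again fell among the controls, and the log2FC of 0.47 ± 0.12 missed the threshold (edgeR adjusted p = 0.136).

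All 3 regulatory IRG genes rose. Irgm1 was at 80.1, 64.9, 74.3 and 75.5 CPM in the treated libraries and 69.1, 62.4, 56.9 and 54.1 CPM in the controls. Treated replicate 3 was below control replicate 2, the highest control, and the other treated libraries were above all controls. The log2FC of 0.29 ± 0.06 was small but precise (edgeR adjusted p = 0.0322). Irgm2 was at 31.7, 23.8, 27.6 and 28.6 CPM against 24.2, 22.8, 21.3 and 20.8 CPM. Igtp was at 27.4, 21.1, 24.3 and 26.7 CPM against 21.6, 22.4, 17.4 and 17.9 CPM. Their pattern over the libraries was the same, with a single treated library, replicate 3, in the control range. Irgm2 had a log2FC of 0.33 ± 0.07 (edgeR adjusted p = 0.0272) and Igtp a log2FC of 0.34 ± 0.08 (0.0665), though the 2 genes share exonic bases and are not fully separate measurements. The effector Iigp1 had the largest ratio of the 10, 1.5, at low level. It was at 3.40, 2.06, 2.85 and 2.36 CPM against 1.98, 1.79, 1.94 and 1.49 CPM. No library overlapped, yet its log2FC of 0.59 ± 0.16 was not called (edgeR adjusted p = 0.172).

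None of the 4 guanylate-binding protein genes was called. Gbp2 was at 10.0, 9.87, 12.4 and 11.2 CPM in the treated and 8.58, 9.20, 8.42 and 9.18 CPM in the control libraries. The groups were separate, and the exact permutation test gave p = 0.0286, the smallest that 4 against 4 libraries allow (two-sided), while the adjusted p of edgeR was 0.132. Gbp3 was at 4.85, 3.94, 4.58 and 4.72 CPM against 3.77, 3.98, 3.54 and 4.07 CPM. Gbp7 was at 6.66, 5.42, 6.05 and 6.76 CPM against 5.90, 5.66, 5.28 and 4.74 CPM. In both, 3 of 4 treated libraries lay above all controls and the ratios were 1.17 and 1.16. Gbp5 was at 2.74, 1.68, 2.79 and 2.25 CPM against 1.84, 1.90, 1.77 and 2.28 CPM. It had the least clear difference, with a 95% interval of the ratio from 0.964 to 1.51 that included no change.

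**Figure D3:**
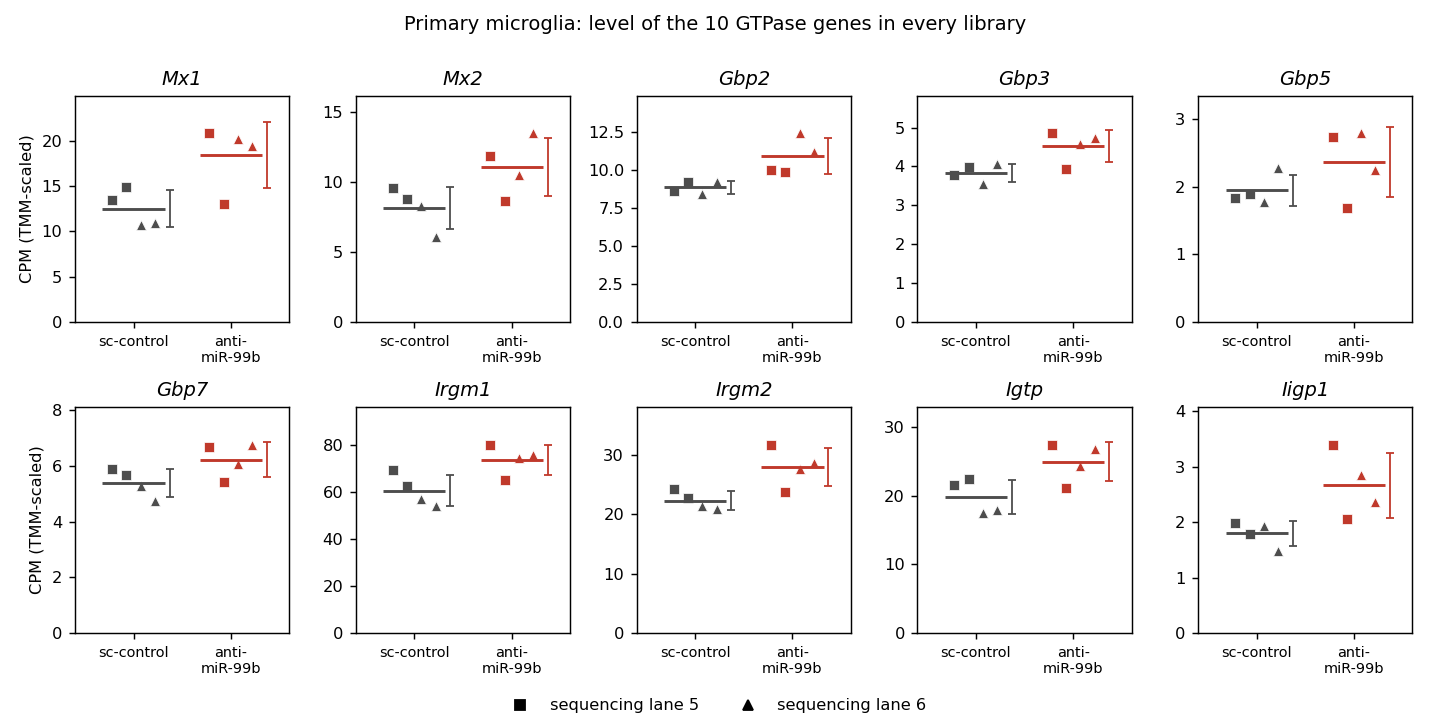
CPM (TMM-scaled) of each gene in the 4 sc-control and 4 anti-miR-99b libraries of primary microglia. Points are libraries with the sequencing lane as shape, horizontal bars are means and error bars SD; treated replicate 3 (lane 5) is the lowest treated library of every gene.

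Treated replicate 3 was the lowest treated library for all 10 members. The difference was present in both sequencing lanes but not of one size. In lane 6 (2 against 2) the treated mean was higher for 10 of 10 members with a median log2 ratio of 0.43. In lane 5 (2 against 2) it was higher for 10 of 10 with a median of 0.17. Shares of all genes were not computed within these lanes. Microglia markers differed little, at 11100 to 11500 against 10900 to 11300 CPM in sum, with none of 10 called. Of 6 oligodendrocyte markers 1 was called lower (median log2FC -0.15), and 3 of 4 tested markers of meninges or choroid plexus had a log2FC above 0 (log2 ratio of their sums 0.35), with 0 called. The part of these markers in the members' values was not tested.

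The calls in the microglia depended on single libraries. No member was called without treated replicate 1 or 5 or without control replicate 4 or 6. Few genes of any kind were called higher in those fits (11 of 15064, 2 of 15157, 0 of 15145 and 6 of 15047, in that order). Without treated replicate 4, 1 member (Irgm2) was called, and 7 were called without treated replicate 3 or control replicate 2. Of all genes tested, 28 of 15055 were called higher without treated replicate 4. The counts were 101 of 15055 without treated replicate 3 and 234 of 15139 without control replicate 2, against 65 of 14953 with every library. The log2FC remained above 0 for all 10 members in each of the 8 fits without one library. With DESeq2 only Irgm2 passed (0.221% of all genes). Without a filter on low counts 7 members did (0.497%), and likewise 7 with the RUVs factor (0.776%).

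In the co-cultures no member was called (adjusted p-value below 0.05, log2FC of more than 0.1), where 0.846% of the 16193 genes tested were called higher, and DESeq2 called none. All 10 had a log2FC above 0 (51.6% of all genes), between 0.02 and 0.29, and 2 of them, Mx2 and Irgm1, had an unadjusted p-value under 0.05 with a higher level (6.4% of all genes). In no member was every treated library above every control (0.303% of all genes). Values are given as lowest, median and highest of the 7 treated and of the 8 control libraries.

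Mx2 ran through 2.96, 3.18 and 3.39 CPM with anti-miR-99b and 1.70, 2.61 and 3.65 CPM with sc-control. The treated libraries were tightly grouped inside the wide control range, and the ratio was 1.23 (95% interval 1.04 to 1.44; edgeR adjusted p = 0.23, exact permutation p = 0.0317, two-sided). Mx1 ran through 0.715, 1.07 and 1.23 against 0.619, 0.764 and 1.22 CPM, a ratio of 1.21 (0.972 to 1.51). At 15 to 38 counts per library Mx1 was the least precise of the 10, and its interval included no change. Irgm1 ran through 13.3, 15.6 and 16.1 against 11.3, 13.2 and 16.3 CPM, a ratio of 1.10 (1.00 to 1.22; edgeR adjusted p = 0.366). Iigp1 ran through 2.53, 2.97 and 3.57 against 1.82, 2.77 and 3.31 CPM, with 3 of 7 treated libraries above every control and a ratio of 1.15 (0.979 to 1.35).

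For the other 6 members the interval of the ratio included 1. Gbp5 had 4.16, 4.83 and 8.07 against 3.77, 4.31 and 6.12 CPM. Gbp3 had 11.2, 13.4 and 16.5 against 10.5, 12.9 and 14.9 CPM. Gbp7 had 12.4, 15.0 and 17.5 against 13.3, 15.2 and 16.5 CPM. Their upper limits were 1.37-fold, 1.18-fold and 1.11-fold. Their ratios in the PFC (1.38, 1.72 and 1.41) lay above these limits, for Gbp5 only just, and had wide intervals themselves. Gbp2 had 4.90, 5.86 and 8.70 against 5.11, 6.18 and 7.31 CPM. Irgm2 had 1.97, 2.49 and 2.80 against 1.88, 2.13 and 3.19 CPM. Igtp had 3.07, 4.12 and 5.48 against 3.23, 4.01 and 4.87 CPM. The groups of all 3 overlapped almost wholly, at ratios of 1.01 (0.876 to 1.17), 1.05 (0.887 to 1.23) and 1.06 (0.907 to 1.24). The sign of the Gbp2 difference turned negative with the lane as a block and in 4 of 15 fits without one library. With the sequencing lane (4 to 7) as a block, 0 members were called as well. Treated replicate 10 was the highest treated library for 7 members. Microglia markers were higher in sum in the treated co-cultures, at 136 to 158 against 121 to 147 CPM, with 4 of 10 called higher, and their part in the members' values was not tested.

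**Figure D4:**
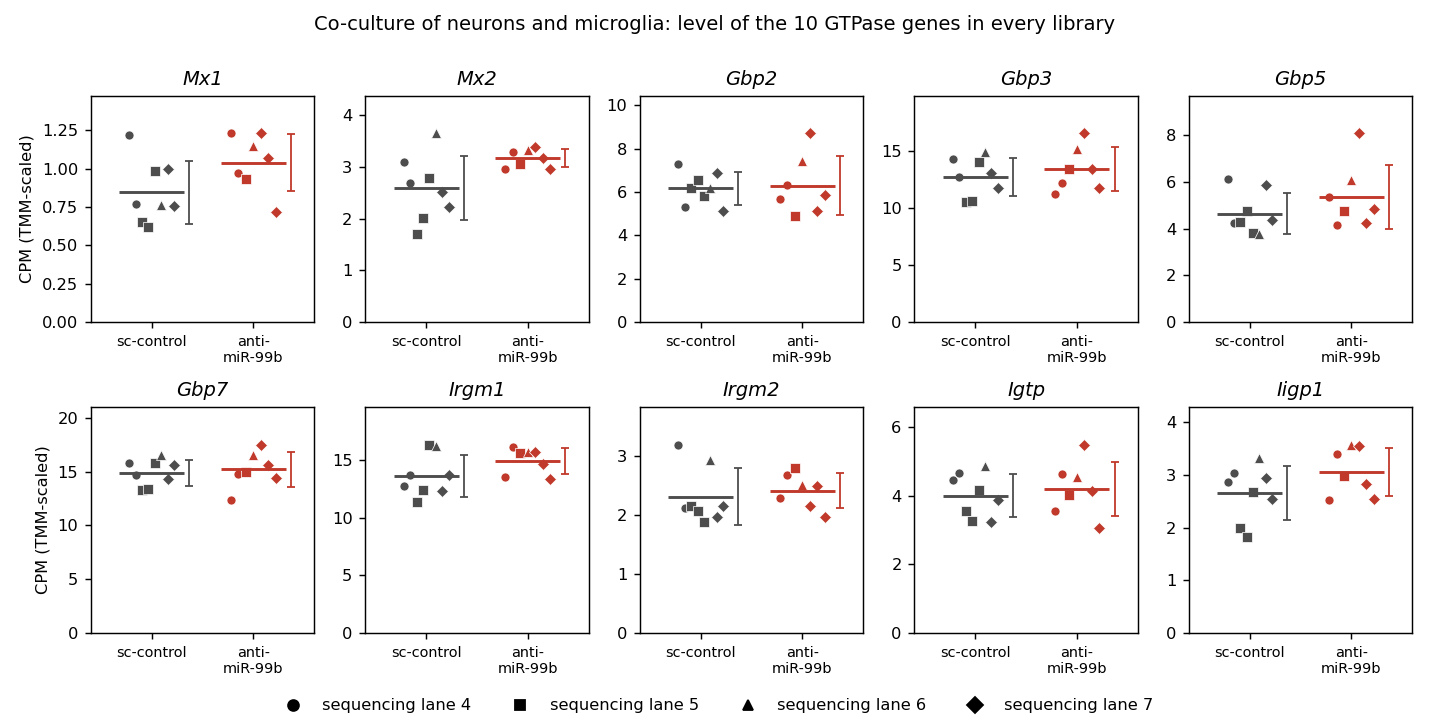
CPM (TMM-scaled) of each gene in the 8 sc-control and 7 anti-miR-99b libraries of the co-cultures. Points are libraries with the sequencing lane as shape, horizontal bars are means and error bars SD; the groups overlap for all 10 genes.

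Whether the response differed between experiments was tested in a single model over the 29 libraries, with an estimate of the spread that all experiments share. Its SE can be too small where libraries vary more and too large where they vary less. For Gbp7 between PFC and co-cultures it was 0.18, below the SE of 0.24 in the PFC alone. The difference between PFC and microglia was significant for 1 member, Mx2 (adjusted p-value under 0.05 for 0.469% of 18963 genes, in either direction). The log2FC of Mx2 was larger in the PFC than in the microglia by 0.98 ± 0.23 (SE; adjusted p = 0.0383). That of Mx1 was larger by 0.86 ± 0.26 (SE; adjusted p = 0.128) and did not pass. Between PFC and co-cultures, Mx2 and Gbp3 passed (0.791% of all genes). Mx2 was larger in the PFC by 1.17 ± 0.24 (SE; adjusted p = 0.00861) and Gbp3 by 0.72 ± 0.18 (SE; adjusted p = 0.0441). Mx1, with 1.18 ± 0.33 (SE; adjusted p = 0.0821), and Gbp2, with 0.58 ± 0.17 (SE; adjusted p = 0.097), had differences of the same sign that missed the threshold. Among the regulatory IRG genes, the differences between PFC and microglia were 0.00 ± 0.17 (SE; adjusted p = 1) for Irgm2 and 0.06 ± 0.19 (SE; adjusted p = 0.945) for Igtp. No member passed the test between the microglia and the co-cultures (0.0844% of all genes), where the largest differences were 0.40 ± 0.30 (SE; adjusted p = 0.942) in Iigp1 and 0.31 ± 0.28 (SE; adjusted p = 0.944) in Mx1. With separate fits per experiment, 1 member passed between PFC and microglia (77 of 14061 genes) and 1 between PFC and co-cultures (57 of 15567). Between microglia and co-cultures 0 members passed (122 of 13932 genes). The experiments differed in tissue, strain, age and delivery of the LNA, and these cannot be told apart.

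The call for Mx2 between PFC and microglia depended on single libraries, as it was lost in 9 of 14 fits that left out a library. Among them were those without PFC treated replicate 2 (adjusted p = 0.103, edgeR) and PFC control replicate 2 (0.211). Between PFC and co-cultures Mx2 lost the call only without PFC control replicate 2 (0.0748), while Gbp3 lost it in 11 of 14 such fits, with adjusted p of up to 0.225, and with separate fits (0.139).

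**Figure D5:**
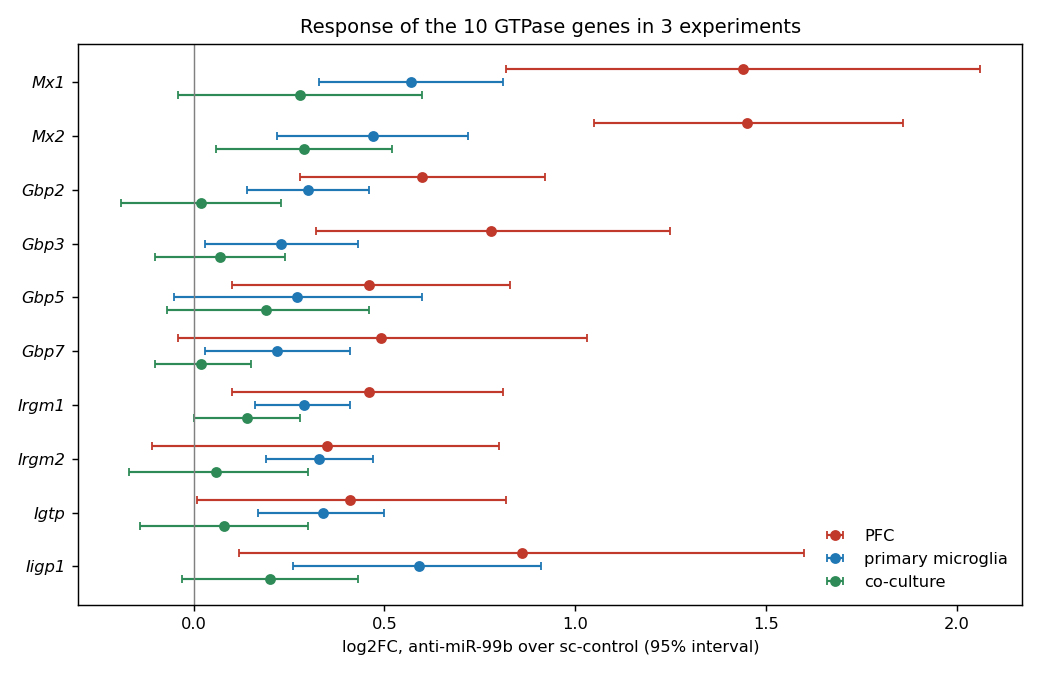
Log2FC of anti-miR-99b over sc-control with 95% intervals for the 10 genes, one colour per experiment, from the edgeR fit of each experiment. The point estimates of the PFC are the largest for all 10 genes, and those of the co-cultures the smallest for all 10.

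The rest of the interferon pathway was read from lists of related genes. None of its genes was called in the PFC. Of 12 interferon signal transducers, 9 had a log2FC above 0 there (median 0.24, against 0.00 over all genes tested), and 6 had an unadjusted p-value under 0.05 with a higher level, where the shares of all genes are 50.6% and 5.17%. Of 11 genes listed as led by interferon gamma, 9 had a log2FC above 0 (median 0.80). Of these, 8 had an unadjusted p-value under 0.05, and 1 gene of the list was lower at that level. In the microglia Irf7 (53.2 ± 8.84 against 34.4 ± 6.75 CPM, log2FC 0.65, adjusted p = 0.0106) and Stat2 (97.6 ± 12.9 against 78.2 ± 8.12 CPM, log2FC 0.33, adjusted p = 0.0405) were among the transducers called higher, and no transducer was called lower. The feedback inhibitor Usp18 was called as well (18.3 ± 4.14 against 11.8 ± 2.56 CPM, log2FC 0.66, adjusted p = 0.0272), as 1 of 8 negative regulators. So was Cxcl10 (9.39 ± 0.801 against 7.20 ± 0.798 CPM, log2FC 0.38, adjusted p = 0.0421), as 1 of 5 tested genes of the interferon gamma list. The median log2FC of these 5 genes was 0.10, and whether any one interferon acted was not tested. In the co-cultures no gene of these lists was called. Irf7, named here because it had the lowest adjusted p of these genes in the microglia, was at 26.1 ± 2.22 against 12.4 ± 5.58 CPM, log2FC 1.07, adjusted p = 0.286 in the PFC and at 2.74 ± 0.463 against 1.90 ± 0.525 CPM, log2FC 0.54, adjusted p = 0.0577 in the co-cultures (edgeR).

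Among relatives of the members, the microglia had 1 of 3 tested other guanylate-binding protein genes called higher, Gbp9 (17.1 ± 0.957 against 13.8 ± 1.34 CPM, log2FC 0.31, adjusted p = 0.0321; edgeR). Of 4 tested other IRG and very large inducible GTPase genes, 2 were called higher, Gm12250 (4.74 ± 0.845 against 3.03 ± 0.402 CPM, log2FC 0.66, adjusted p = 0.0238) and Gm4951 (5.68 ± 0.746 against 3.80 ± 0.570 CPM, log2FC 0.60, adjusted p = 0.0238). In the PFC 0 of 5 and 0 of 6 such genes were called, with medians of 0.76 and 0.24 in log2FC, and in the co-cultures 0 of 6 and 0 of 2, with medians of 0.02 and 0.08. Dynamins, mitofusins and other dynamin relatives that interferons do not induce were not called in any experiment (0 of 10 each), with medians of -0.12 (PFC), -0.04 (microglia) and -0.02 (co-cultures). Genes of ATG8 conjugation, which direct IRG and guanylate-binding proteins to vacuoles, were not called either (0 of 10 each; medians of -0.05, 0.00 and 0.04). Of 9 inflammasome partners, Nlrc4 alone was called, in the co-cultures (0.534 ± 0.145 against 0.24 ± 0.0788 CPM, log2FC 1.12, adjusted p = 0.00623). Its level was low in both groups, and 4 of 10 microglia markers were called higher there too. The part of these markers in the Nlrc4 values was not tested.

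Of the interferon genes, Ifng and Ifnb1 were in the lists, and both gave almost no reads. Ifng had at most 1 count in any PFC library, 0 in the microglia and at most 2 in the co-cultures, and Ifnb1 at most 2, 2 and 0. Neither was tested. The 5 receptor genes tested (Ifnar1, Ifnar2, Ifngr1, Ifngr2 and Il10rb) were not called in any experiment (0 of 5 each), with medians of 0.02, 0.02 and 0.05 in log2FC.

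The members also varied together between libraries of one group. With the group mean removed, the log2 CPM values of all 45 pairs were positively correlated over the 29 libraries, with a median Pearson's r of 0.62 and a range from 0.13 (Gbp5 and Irgm1) to 0.82 (Gbp7 and Irgm1). Gbp7, with a median r of 0.71 to the other members, was the closest to the rest, and Gbp5 (0.38) and Gbp2 (0.39) were the farthest. Among the genes outside the set whose values, centred within each experiment, were most like the members' mean, out of 13640 genes, were Ifit1 (r = 0.937), Parp9 (0.918), Rnf213 (0.912) and Gm4951 (0.907). Their r lay between 0.65 and 0.85 over the co-cultures alone and between 0.94 and 0.99 over the libraries of either other experiment. The libraries share depth and cell composition across genes, so these values are descriptions.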

How the data were processed

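Poly(A) RNA libraries (TruSeq RNA v2) had been sequenced as single reads of 50 bases on a HiSeq2000. The deposited files are 3 tables of raw read counts per gene, which the authors made with bcl2fastq 2.20.2, FastQC 0.11.5, STAR 2.5.2b and featureCounts 1.5.1 on mm10, per the submitters' processing notes. The annotation release and the strand setting are not given in the sources used here. Groups were taken from the labels, and every column matched a sample.

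In each experiment, genes that passed filterByExpr (17364 in the PFC, 14953 in the microglia, 16193 in the co-cultures) were tested with edgeR 4.0.16 (R 4.3.3; TMM factors, quasi-likelihood test, no covariate, Benjamini-Hochberg adjustment over all genes tested). SE is the log2FC divided by the root of the F statistic. Differences of the response were tested as contrasts of a single edgeR model over the 29 libraries, with a spread shared by all experiments. CPM means were compared with two-sided exact permutation tests (scipy 1.17.1). RPKM is CPM per kilobase of the exons' union. The fits were also run on simulated counts. For the contrasts between experiments these counts had the same spread in all experiments, so unequal spread was not tested. The 10 members, the pathway lists and the markers were chosen with earlier results of these data known. All members are named, as are the called genes of each other list and the 5 genes most like the members' mean, except 1 gene that is not reported here. Alternatives were DESeq2 1.42.0, RLE factors, other filters, an RUVs factor, lane and library number as blocks, one threshold for all experiments and leaving out each library. No 2 libraries of a group were copies, since the chi-square per degree of freedom over genes was at least 1.48 in all 67 pairs. Counting error falls as counts rise, so the values of Mx1 in the co-cultures were the least precise. No level of the microRNA was analysed here.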

Additional observations from a re-analysis of the deposited data

Results flagged for a closer look

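The response of Mx2 to anti-miR-99b differed between experiments in the contrast test of edgeR over 29 libraries, which uses a spread shared by all experiments. The log2FC of Mx2 in the PFC exceeded that in the primary microglia by 0.98 (adjusted p = 0.0383) and that in the co-cultures by 1.17 (adjusted p = 0.00861). The first difference ranged from 0.85 to 1.13 over its alternatives, with adjusted p between 0.00438 and 0.211, and the second from 1.04 to 1.32, with adjusted p between 7.85e-05 and 0.0748. The log2FC of Gbp3 in the PFC exceeded that in the co-cultures by 0.72 (edgeR adjusted p = 0.0441), with a range of 0.54 to 1.03 and adjusted p between 0.000223 and 0.225 over its alternatives. All 3 PFC libraries with anti-miR-99b lay above all 3 controls for both genes. Tissue, strain, age and delivery differ between these experiments and cannot be told apart. By Dixon's criterion, 0 of the 40 sets of values tested (10 genes in each group of the microglia and the co-cultures) held a single library far from the rest.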

How the results depend on the processing

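All 10 members had a log2FC above 0 in every alternative of the PFC (150 of 150 values) and of the microglia (160 of 160), and in 216 of 230 in the co-cultures. These values refit the same libraries, and those of the single threshold repeat the main fit, so they are not separate checks. The number of members called higher was less stable. In the PFC it was 1 of 10 and became 4 with DESeq2, 7 without a filter on low counts, 10 with the RUVs factor and 5 with the lane as a block, while all genes called in either direction went from 15 to 93, 412, 315 and 77. In the microglia it was 4 and became 1, 7 and 7 with DESeq2, without a filter and with the RUVs factor, and all genes went from 73 to 38, 167 and 158. In the co-cultures it was 0 throughout, while all genes called went from 227 to 515 with the RUVs factor and 121 with the lane as a block. The cause of these shifts was not tested. RLE factors and a minimum of 10 counts in every library changed no count of members.

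Leaving out one library gave 0 to 4 PFC members (1 to 201 genes in all), 0 to 7 in the microglia (2 to 409 genes) and 0 in the co-cultures (143 to 300 genes). The co-culture fits of this kind were chosen after seeing the data. The members whose response differed between PFC and microglia ranged from 0 to 3 (17 to 984 genes in all). Those between PFC and co-cultures ranged from 0 to 4 (45 to 1751 genes in all). The latter count was 2, and it became 1 with separate fits and 4 with the lane as a block.

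Signs turned for some members that had not been called. In the co-cultures Gbp2 had a log2FC of -0.01 with the lane as a block and ranged from -0.08 to 0.08 with one library left out, and Gbp7 from -0.02 to 0.07. Between PFC and microglia the difference for Irgm2 was -0.01 with the lane as a block, and with one library left out it ranged from -0.22 to 0.20 for Irgm2, -0.08 to 0.48 for Gbp7, -0.04 to 0.33 for Irgm1, -0.16 to 0.24 for Igtp and -0.22 to 0.58 for Iigp1. Between microglia and co-cultures that of Gbp5 ranged from -0.01 to 0.23.

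Libraries with the same number had mean correlations of -0.118 (PFC, 2 pairs), -0.044 (microglia, 2 pairs) and 0.012 (co-cultures, 4 pairs). So few pairs cannot show whether the numbers mark paired libraries, and the main fits did not use them as pairs. With the number as a replicate block, fitted only to libraries with a number that both groups share, 10 members were called in the PFC (518 genes in all), 2 for the microglia (249 genes) and 0 for the co-cultures (93 genes). In this replicate block the co-culture log2FC turned to -0.15 for Gbp2, -0.00 for Gbp5, -0.01 for Gbp7 and -0.01 for Igtp. A crossed pairing of the PFC numbers, chosen after seeing the data, gave 10 members and 638 genes.

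With 3 or 4 libraries a group, single libraries decide most calls named above, whereas the direction did not depend on them in the PFC or the microglia. CPM from library totals without TMM factors, also chosen after seeing the data, left the same number of members without overlap in each experiment.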
